A study of Rattus norvegicus with 16 samples.

Results

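The initial segment of the rat epididymis was compared between 12 h and 6 h of efferent duct ligation, with 4 arrays at each time, 8 of the 16 arrays in the study. The arrays were picked by their labelled time alone, and no sham array entered any test. All animals were adult male Sprague-Dawley rats, with no genetic change given in the labels. Both groups carried the same operation, in which the ducts between testis and epididymis were tied on 1 side while the opposite side of the animal had a sham operation. The tissue was zones 1a and 1b, the end of the initial segment nearest the testis. Groups at 18 h and after sham operation, also of 4 arrays, appear below only as levels. The comparison thus shows what changed between the later and the earlier time within ligated tissue, not what ligation itself did. The labels call the replicates biological without saying which animal each came from, so the p-values here speak only of the spread among these arrays, some of which may be technical.

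The initial segment is a tall epithelium whose principal cells depend on factors carried in testicular fluid, a form of control called lumicrine. These factors act on receptors at the luminal face and keep the kinase ERK active. ERK in turn keeps up transcripts of the Etv transcription factors and of the Dusp phosphatases that switch ERK off again. Cytokine signals reach the nucleus through STAT proteins, and NFKB is held in the cytoplasm by its inhibitor until it is released. The series title names these 3 pathways and apoptosis, and the comparison asks which of their genes moved between 6 h and 12 h.

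Every level is a log2 expression value and every change is the 12 h mean minus the 6 h mean ± SE, with n = 4 arrays in each group. The adjusted p is limma's, over all tested probe sets, and a gene is called when it lies under 0.05. A level under 5 was below the minimum used for testing and is not distinguished from background, so the size of a change that starts or ends there is only the size as measured. Of 12984 tested probe sets, 326 were called (2.51%), with 122 higher (0.94%) and 204 lower (1.57%) at 12 h, and 2192 had an unadjusted p under 0.05. Represented by 1 probe set each, 216 of 8149 genes were called (2.65%), 88 higher (1.08%) and 128 lower (1.57%). At least 2-fold changes were seen in 37 of the genes that rose and 68 of those that fell. The median change over all tested genes was 0.0018, and 50.42% of them were higher at 12 h. In 986 genes (12.1%) the 4 arrays at 12 h did not overlap with the 4 at 6 h, and all 216 called genes were among these. Of the 8149 genes, 14 reached 5 on arrays of 1 time and on none of the other, so they were tested only through the time where they are high. Of these 14 genes 9 were called, and 207 of the other 8135 (2.54%). The 7 described below (Mmp7, Nags, B3galt5, Myc and Cish, high at 12 h, and Mogat1 and Nalf2, high at 6 h) are given with the adjusted p and SE of the fit without a minimum level, and are left out of the list counts. All other genes are given with the fit that used the minimum level. Without it only 61 probe sets were called, and 50 of the 55 called genes named by rule lost their call. In whole tissue, fewer cells of a type and less RNA per cell cannot be told apart.

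The arrays divided by replicate number, which touches every result below. With time in the model, 3050 of the 12984 probe sets (23.5%) had a different level in replicates 3 and 4 than in the first 2 replicates, with 1308 higher and 1742 lower. A bacterial control transcript, dap, lay at the floor of 2.22 in all 4 arrays at 12 h, against 7.94 and 7.98 in 6 h replicates 3 and 4 and the floor in 6 h replicates 1 and 2. By that control, replicates 3 and 4 at 12 h and at 6 h were treated as different array sets, and within them time and array set cannot be told apart. A fit with the array set as a block estimates the change from replicates 1 and 2 only. It called 982 probe sets, and 637 genes (7.82%; 307 higher, 3.77%, and 330 lower, 4.05%), and 245 of the 326 calls (75.2%) were also called there. The replicate number as a block gave 572 probe sets and 370 genes (4.54%; 176 higher, 2.16%, and 194 lower, 2.38%). In Gapdh the 3′ minus 5′ level, a sign of RNA length, was 0.0507, 0.0523, 0.293 and 0.191 at 12 h, against 0.126, 0.0505, 0.0726 and -0.0371 at 6 h. The same measure in actin was 1.43, 1.46, 1.19 and 1.299 at 12 h, against 1.36, 1.400, 1.21 and 1.20 at 6 h, so that 12 h replicate 3 was the highest array for Gapdh and the lowest for actin. Their part in the results was not tested. The change was larger within replicates 1 and 2 for 137 of the 216 called genes and larger within replicates 3 and 4 for 79.

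Several of the genes with the largest rises were below the minimum level at 6 h. Mmp7, which encodes the epithelial matrix protease matrilysin, had levels of 6.37, 7.54, 9.86 and 7.03 at 12 h, against 2.84, 2.90, 2.41 and 4.18 at 6 h. The difference was 4.62 ± 0.83 (adjusted p = 0.128). Every 12 h array lay above every 6 h array, and all 4 arrays at 6 h were under 5. Nags, the gene of the enzyme that makes the activator of the urea cycle, was measured at 7.35, 7.47, 5.18 and 7.31 at 12 h, against 2.93, 2.26, 2.72 and 4.61 at 6 h, a difference of 3.70 ± 0.73 (adjusted p = 0.163). B3galt5, a galactosyltransferase gene that builds carbohydrate chains on glycoproteins and glycolipids, stood at 6.67, 7.78, 5.76 and 7.02 at 12 h, against 3.06, 2.99, 3.83 and 3.72 at 6 h, a difference of 3.41 ± 0.46 (adjusted p = 0.0627). Mmp7, Nags and B3galt5 were tested only because the 4 arrays at 12 h were above 5, and without a minimum level none of them was called. Rasl10a, a gene of the Ras superfamily, was at 6.13, 7.17, 7.04 and 7.33 at 12 h, against 4.04, 4.07, 5.005 and 4.59 at 6 h, a rise of 2.49 ± 0.32 (adjusted p = 0.0117). Its only 6 h array at or above 5 was replicate 3, at 5.005, so its testing too rested on the 12 h arrays. That p is from the fit with the minimum level, unlike those of the other 3 genes. These 4 genes had sham means under 5 as well, at 2.45 for Mmp7, 2.95 for Nags, 2.69 for B3galt5 and 4.01 for Rasl10a. The level at 18 h was higher than at 12 h for Mmp7 (9.68) and lower for Nags (6.37), B3galt5 (5.05) and Rasl10a (6.16), differences that were not tested here.

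A second group of risers was already well expressed at 6 h. Gamt, whose enzyme makes creatine, had levels of 10.28, 10.04, 9.86 and 10.05 at 12 h, against 8.22, 7.74, 8.10 and 8.78 at 6 h, and rose by 1.85 ± 0.21 (adjusted p = 0.0092). Rhcg, an ammonia channel gene, was at 11.81, 11.23, 10.50 and 10.76 at 12 h, against 8.90, 8.48, 8.78 and 10.12 at 6 h, and rose by 2.00 ± 0.41 (adjusted p = 0.0493; 0.0623 with the replicate block). Cyp4f4, a cytochrome P450 that hydroxylates fatty acids, was at 11.17, 10.65, 9.03 and 9.88 at 12 h, against 7.06, 6.81, 6.79 and 8.69 at 6 h, and rose by 2.84 ± 0.57 (adjusted p = 0.0479; 0.0527 with the replicate block). In both genes the highest 6 h array was replicate 4, and it lay below every 12 h array. The other large rises were those of Fes, a cytoplasmic tyrosine kinase (2.03 ± 0.35, adjusted p = 0.0306), Col18a1, the basement membrane collagen from which endostatin is cut (2.00 ± 0.40, 0.0479), and Apeg3, an RNA antisense to Peg3 (1.87 ± 0.25, 0.0118). Slc16a10, an aromatic amino acid transporter (1.80 ± 0.33, 0.0352), Sgsm1, a regulator of small GTPases (1.69 ± 0.30, 0.0306; 0.0513 with the replicate block), the mitochondrial carrier Slc25a45 (1.68 ± 0.23, 0.0142) and Tiam1, which activates Rac (1.59 ± 0.30, 0.0403), completed the 14 largest. Of the 14, Rasl10a, Apeg3 and Gamt kept their calls in all 8 fits without 1 array. Without 6 h replicate 3 the adjusted p was 0.143 for Cyp4f4, 0.147 for Rhcg, 0.102 for Fes, 0.111 for Slc16a10, 0.1 for Sgsm1 and 0.117 for Tiam1. It was 0.131 for Col18a1 without 12 h replicate 1 and 0.0557 for Slc25a45 without 6 h replicate 1. The calls of Col18a1 and Tiam1 were lost in each of the 8.

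**Figure D1:**
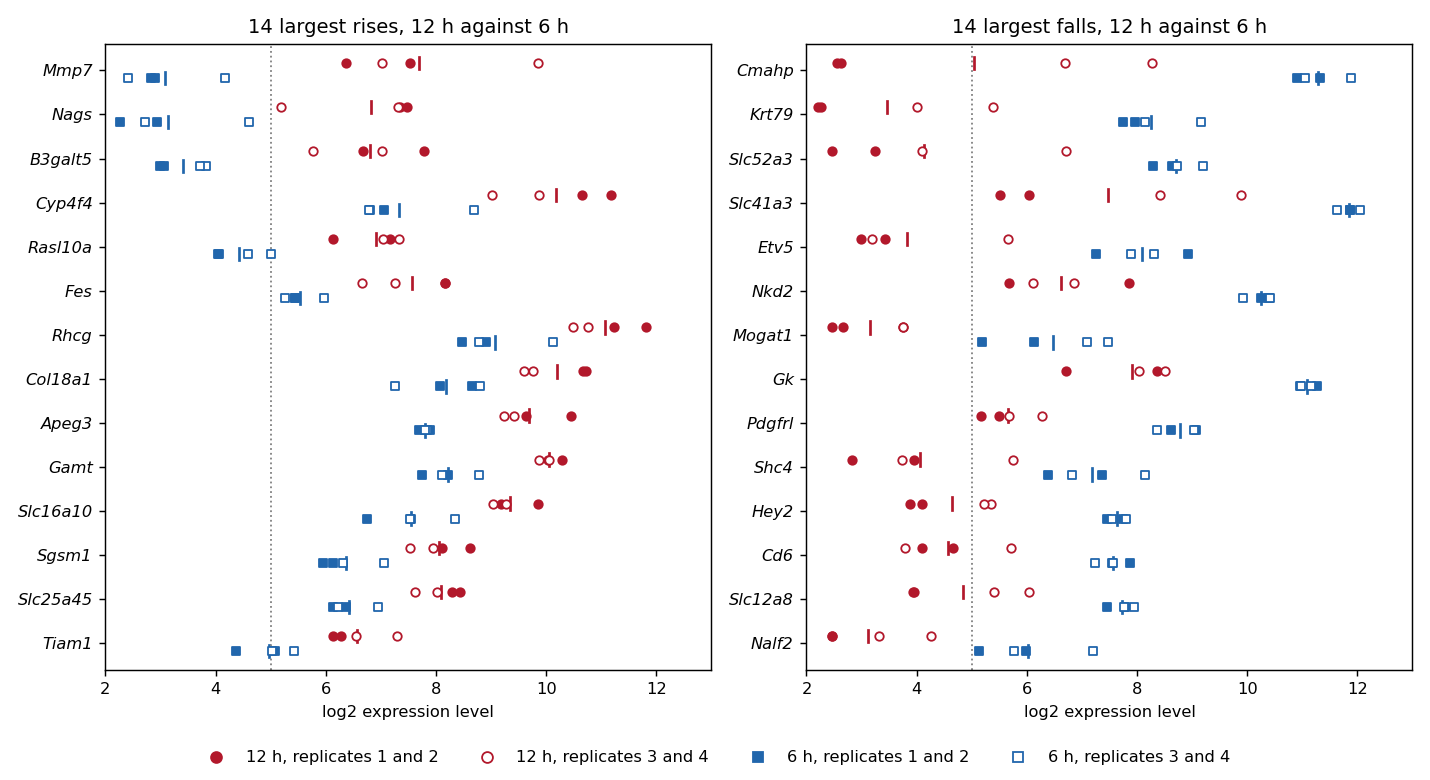
Log2 expression level on each of the 8 arrays for the 14 genes that rose most (left) and the 14 that fell most (right), with circles for 12 h above squares for 6 h, filled symbols for replicates 1 and 2, open symbols for replicates 3 and 4, and a short bar for the mean of 4 arrays. The dotted line marks the minimum level of 5. Only genes whose 12 h and 6 h arrays do not overlap were eligible, so their separation follows from the choice. Mmp7, Nags, B3galt5, Mogat1 and Nalf2 were tested only through 1 time. Cmahp (2.56 to 8.27) and Slc41a3 (5.51 to 9.89) have the widest spread among the 12 h arrays on the right.

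The largest falls came in genes of unlike roles. Cmahp, carried under a pseudogene symbol, was at 2.63, 2.56, 8.27 and 6.70 at 12 h, against 10.91, 11.32, 11.88 and 11.05 at 6 h, and fell by 6.25 ± 1.27 (adjusted p = 0.0493). Krt79, a keratin gene, was at 2.26, 2.22, 5.38 and 4.01 at 12 h, against 7.96, 7.75, 9.16 and 8.15 at 6 h, and fell by 4.79 ± 0.72 (adjusted p = 0.0179). Slc52a3, which encodes a riboflavin transporter, was at 2.47, 3.25, 6.71 and 4.10 at 12 h, against 8.28, 8.64, 9.19 and 8.72 at 6 h, and fell by 4.58 ± 0.82 (adjusted p = 0.0334). In all 3 genes the higher 12 h arrays were among replicates 3 and 4, yet none reached a 6 h array. Gk, the glycerol kinase gene, was at 6.71, 8.37, 8.51 and 8.04 at 12 h, against 10.96, 11.27, 11.16 and 10.97 at 6 h, and fell by 3.18 ± 0.37 (adjusted p = 0.0092). A further probe set of Gk was lower as well but not called. Hey2, a transcriptional repressor gene that Notch signals switch on, was at 3.88, 4.10, 5.35 and 5.22 at 12 h, against 7.45, 7.75, 7.80 and 7.55 at 6 h, and fell by 3.00 ± 0.34 (adjusted p = 0.0092). The 6 h means beside the sham means were 11.29 and 11.12 for Cmahp, 8.26 and 8.44 for Krt79, 8.71 and 8.67 for Slc52a3, 11.09 and 11.30 for Gk and 7.64 and 7.13 for Hey2. The 6 h and sham arrays overlapped for Cmahp and Gk, and for Hey2 every 6 h array lay above every sham array. At 1 sham array Krt79 was at 4.79 and Slc52a3 at 6.75, while the other 3 sham arrays lay at 9.57 to 9.78 and at 9.25 to 9.40, above all 4 arrays at 6 h for both genes. That sham array was also the lowest for Cmahp, at 9.13, and for Gk, at 10.89. The other 3 lay at 11.73 to 11.83 for Cmahp, within the range of the 6 h arrays, and at 11.42 to 11.45 for Gk, above all 4 arrays at 6 h.

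Other genes had a lower mean at 6 h than in sham and a lower one again at 12 h. Pdgfrl, a gene related to the PDGF receptors, was at 5.17, 5.49, 6.28 and 5.67 at 12 h, against 8.62, 9.07, 8.37 and 9.03 at 6 h, with a sham mean of 11.03. It fell by 3.12 ± 0.26 (adjusted p = 0.0032), with all 12 h arrays more than 2 units under the lowest 6 h array. Mogat1, an enzyme gene of triglyceride synthesis, was at 2.67, 2.47, 3.76 and 3.76 at 12 h, against 5.19, 6.13, 7.47 and 7.10 at 6 h, with a sham mean of 8.58. The difference was -3.31 ± 0.60 (adjusted p = 0.131), in a gene tested only because its 6 h arrays were above 5. Nkd2, which encodes an inhibitor of Wnt signalling, was at 5.69, 7.86, 6.12 and 6.85 at 12 h, against 10.26, 10.40, 9.93 and 10.42 at 6 h, with a sham mean of 11.21, and fell by 3.62 ± 0.43 (adjusted p = 0.0095). Etv5, described below, was also among the 14 largest falls. The others were those of Slc41a3, a magnesium transport gene (-4.39 ± 0.90, adjusted p = 0.0497), Shc4, a receptor tyrosine kinase adaptor (-3.11 ± 0.63, 0.0482; 0.0538 with the array set block), Cd6, a receptor known from T cells (-3.00 ± 0.39, 0.0117), and Slc12a8, a gene of the cation chloride cotransporter family (-2.90 ± 0.47, 0.0243). Nalf2, a gene linked to the sodium leak channel, was likewise tested only through its 6 h arrays and differed by -2.90 ± 0.59 (adjusted p = 0.175). Cd6 fell while the 5 tested T and NK cell markers had a median change of 0.50, with 5 of 5 higher and 0 called (0 at an unadjusted p under 0.05). Gk, Hey2, Pdgfrl, Nkd2 and Cd6 kept their calls in all 8 fits without 1 array. Without 6 h replicate 3 the adjusted p was 0.146 for Cmahp, 0.0658 for Krt79, 0.108 for Slc52a3, 0.144 for Slc41a3, 0.135 for Shc4 and 0.0839 for Slc12a8. Chosen after their values were seen, Tmem150c (11.54 ± 0.19 at 12 h and 13.26 ± 0.14 at 6 h, SD, n = 4 each; adjusted p = 0.0025) and Inpp4a, a phosphoinositide phosphatase gene (7.46 ± 0.27 at 12 h and 9.46 ± 0.18 at 6 h, SD, n = 4 each; adjusted p = 0.003), had among the smallest p-values of all genes.

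Among the ERK output genes, Etv5, Etv4, Etv1 and Ccnd1 fell between 6 h and 12 h. The phosphatase genes Dusp6 and Dusp5 were not called, and the changes of these genes were not tested against each other. Etv5 was at 3.00, 3.43, 5.66 and 3.19 at 12 h, against 7.25, 8.92, 7.88 and 8.32 at 6 h, and fell by 4.27 ± 0.62 (adjusted p = 0.0161). Etv4 was at 7.20, 8.06, 8.62 and 9.21 at 12 h, against 10.96, 10.52, 10.83 and 10.84 at 6 h, and fell by 2.51 ± 0.39 (adjusted p = 0.019). Etv1 was at 6.88, 7.24, 7.59 and 7.35 at 12 h, against 9.04, 9.08, 9.30 and 8.74 at 6 h, and fell by 1.77 ± 0.18 (adjusted p = 0.0059). All 3 genes encode ETS family transcription factors that ERK both activates and keeps transcribed, and in each of them the 2 times did not overlap. Their 6 h means beside the sham means were 8.09 and 9.46 for Etv5, 10.79 and 11.35 for Etv4 and 9.04 and 9.25 for Etv1. Etv1 had 3 further probe sets, all called, at -2.59, -2.70 and -3.19. Ccnd1, the cyclin D1 gene through which growth signals enter the cell cycle, was at 8.82, 8.88, 8.32 and 8.91 at 12 h, against 9.69, 10.07, 9.75 and 9.48 at 6 h, and fell by 1.01 ± 0.17 (adjusted p = 0.0293).

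Dusp6, which encodes the phosphatase that inactivates ERK in the cytoplasm, was at 7.55, 7.69, 7.92 and 7.63 at 12 h, against 7.18, 7.32, 7.66 and 7.48 at 6 h, with a sham mean of 10.11. Its change was 0.28 (95% confidence interval -0.0259 to 0.59, adjusted p = 0.34), and the groups overlapped. Dusp5, a nuclear ERK phosphatase gene, was at 7.19, 8.01, 7.19 and 7.83 at 12 h, against 8.26, 8.52, 8.31 and 8.79 at 6 h, with a sham mean of 10.97. It differed by -0.92 (95% confidence interval -1.43 to -0.40, adjusted p = 0.079) with no overlap, and the replicate block gave 0.0303. Among the feedback inhibitors of the Sprouty family, Spry1 changed by -0.0195 ± 0.16, Spry2 by -0.85 ± 0.46 and Spry4 by -0.072 ± 0.11, none of them called. In all, 4 of the 10 tested members of the ERK output list fell, 0 rose and 6 were not called, with a median of -0.88, against 1.57% of all genes called lower. The array set block called 4 lower (4.05% of all genes) and the replicate block 5 (2.38%). Without 1 array the number called was 1 to 4, at 1 without 6 h replicate 2 or 6 h replicate 3, at 2 without 12 h replicate 1, 12 h replicate 2 or 6 h replicate 1, at 3 without 6 h replicate 4 and at 4 without 12 h replicate 3 or 4. Etv1 was called in all 8 of these fits. The highest adjusted p was 0.0602 for Etv5 (without 6 h replicate 2), and 0.073 for Etv4 and 0.0966 for Ccnd1 (both without 6 h replicate 3).

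**Figure D2:**
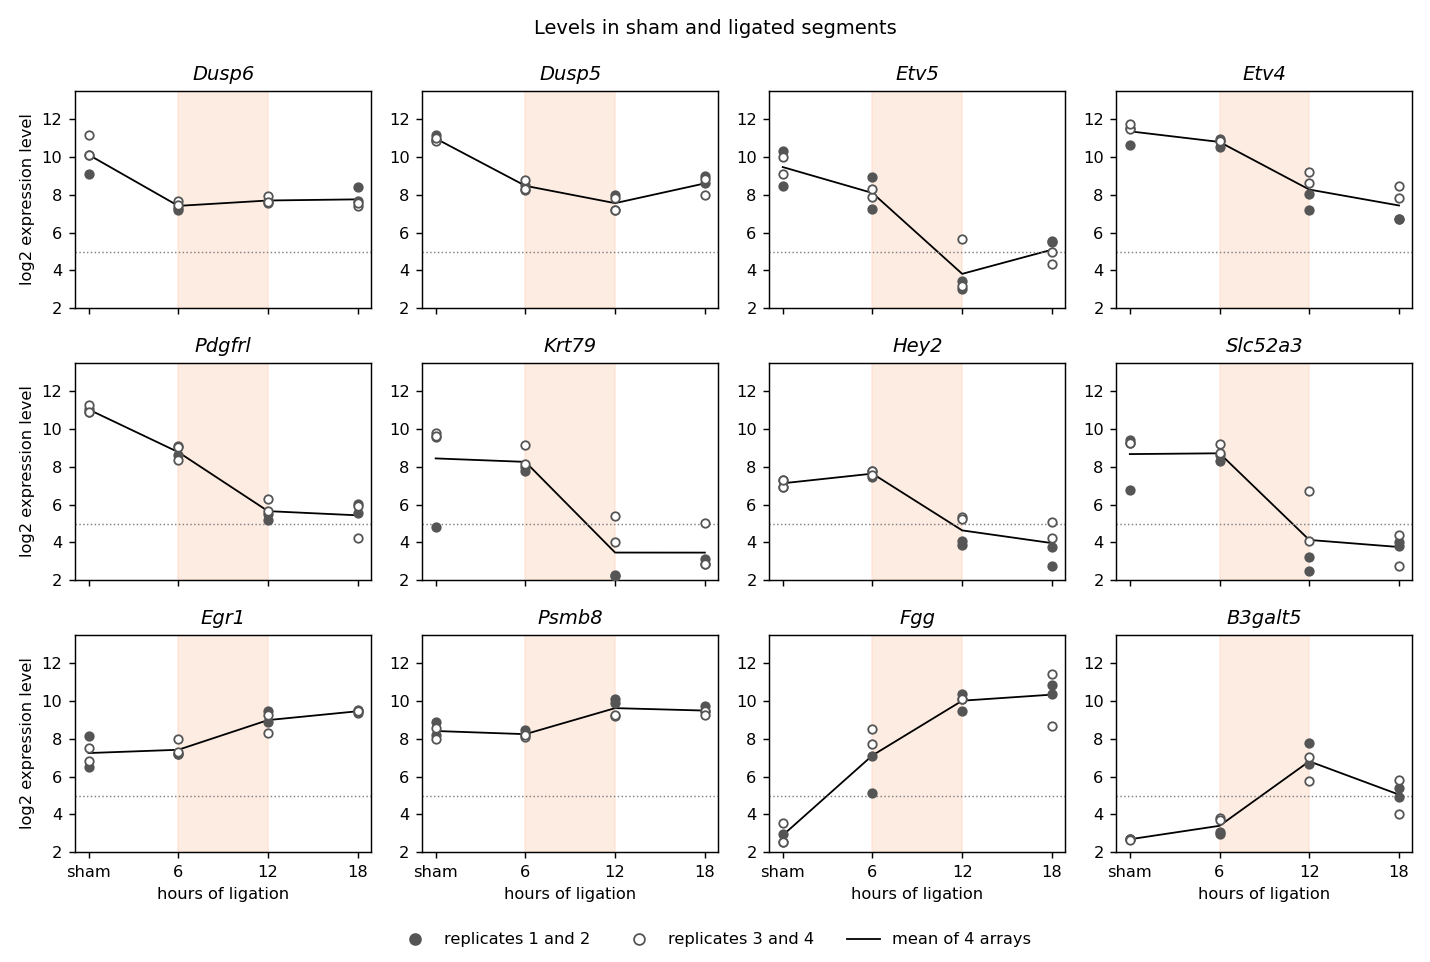
Log2 expression level against hours of ligation, with sham at the left, for 12 genes. Points are single arrays, filled for replicates 1 and 2 and open for replicates 3 and 4, the line joins the means of 4 arrays, the shaded band spans 6 h to 12 h, and the dotted line marks the minimum level of 5. Dusp6 and Dusp5 lie below sham at 6 h and are not called between 6 h and 12 h. Within the band the means of Etv5, Etv4, Krt79, Hey2 and Slc52a3 are lower at 12 h, and those of Psmb8, Egr1 and B3galt5 higher.

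Immediate early genes, transcription factor genes that cells switch on within minutes of a signal, gave 2 calls, both higher at 12 h. Egr1, a zinc finger factor gene, was at 9.48, 8.89, 9.26 and 8.31 at 12 h, against 7.19, 7.18, 7.99 and 7.31 at 6 h, a rise of 1.57 ± 0.29 (adjusted p = 0.0341). Myc, the growth regulator gene, was at 6.08, 6.27, 6.27 and 5.48 at 12 h, against 4.07, 4.12, 4.81 and 4.80 at 6 h, a difference of 1.57 ± 0.27 (adjusted p = 0.113) in a gene tested only through its 12 h arrays. Nr4a1, an orphan nuclear receptor gene, was at 8.57, 8.27, 7.81 and 7.62 at 12 h, against 6.95, 6.83, 7.02 and 7.08 at 6 h, a rise of 1.10 ± 0.21 (adjusted p = 0.0367; 0.0544 with the replicate block). No 12 h array of these 3 genes fell among the 6 h arrays, and the 6 h means beside the sham means were 7.42 and 7.25 for Egr1, 4.45 and 4.18 for Myc and 6.97 and 7.13 for Nr4a1. Without Myc, 2 of 18 tested early genes rose (against 1.08% of all genes) and 0 fell, with a median of 0.44 and 16 higher. Fos stood at 2.03 ± 0.59 (adjusted p = 0.126), Junb at 0.85 ± 0.18 (0.0528), Zfp36 at 0.95 ± 0.22 (0.0703), and Egr2 was among the few on the other side at -0.24 ± 0.10. These counts changed with the arrays: the 18 genes had 0 calls without 12 h replicate 1 or 2 or 6 h replicate 1, 2 or 4, 1 call when 12 h replicate 3 or 6 h replicate 3 was left out, and 6 when 12 h replicate 4 was. The replicate block called 5 of them, against 4.54% of all genes.

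Among STAT and acute phase genes, Cebpd rose. Cish, a cytokine-induced inhibitor of STAT signalling, was at 5.59, 5.79, 5.47 and 5.79 at 12 h, against 4.56, 4.57, 4.63 and 4.90 at 6 h, a difference of 0.99 ± 0.11. It was tested only through its 12 h arrays, and the fit without a minimum level called it too (adjusted p = 0.0433). Cebpd, a transcription factor gene of the acute phase response, was at 8.18, 8.30, 7.97 and 7.15 at 12 h, against 5.93, 6.45, 6.56 and 6.39 at 6 h, with a sham mean of 5.43, a rise of 1.56 ± 0.26 (adjusted p = 0.0281). The fibrinogen chain genes, which the liver raises in the acute phase, differed further from sham but were not called over this interval. Fgg was at 9.45, 10.37, 10.10 and 10.12 at 12 h, against 5.12, 7.11, 7.72 and 8.53 at 6 h, a difference of 2.89 ± 0.66 (adjusted p = 0.0667; 0.0265 with the array set block and 0.0378 with the replicate block). Fga differed by 2.08 ± 0.49 (adjusted p = 0.0721; 0.0125 with the replicate block). The sham means were 2.90 for Fgg and 3.59 for Fga, so part of their distance from sham was already there at 6 h, with means of 7.12 and 7.50. Without Cish, 1 of 16 tested STAT and acute phase genes rose (against 1.08% of all genes) and 0 fell, with a median of 0.40 and 15 higher. Both blocked fits called 4, against 3.77% of all genes called higher with the array set block and 2.16% with the replicate block. The list had 0 calls without 12 h replicate 2 or any of the 4 arrays at 6 h, where Cebpd reached an adjusted p of 0.0849 (without 6 h replicate 1).

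For NFKB, Nfkbia, the gene of the inhibitor that NFKB itself induces, was at 8.84, 8.88, 8.77 and 8.56 at 12 h, against 8.12, 7.85, 8.13 and 8.01 at 6 h. It rose by 0.74 ± 0.11 (adjusted p = 0.0174), the only call among 16 tested members (1.08% of all genes were called higher), of which 15 were higher with a median of 0.33. Bcl3, an NFKB cofactor gene (1.13 ± 0.26, adjusted p = 0.0699), and Icam1, an adhesion molecule gene (0.89 ± 0.23, 0.0971), were not called. The subunit genes Nfkb1 (0.079 ± 0.16) and Rela (0.093 ± 0.13) stayed within their error. The Nfkbia call was lost without 12 h replicate 1, 6 h replicate 1, 6 h replicate 2 (0.0563) or 6 h replicate 3. The chemokine gene Ccl2, which draws monocytes into tissue, was at 10.03, 10.44, 7.69 and 6.40 at 12 h, against 4.73, 6.16, 3.73 and 3.36 at 6 h, a difference of 4.15 ± 1.00 with an adjusted p of 0.0748. Its groups did not overlap, but at each time replicates 1 and 2 were the higher ones, and with that divide in the model it was called (0.0101 with the array set block, 0.0146 with the replicate block). Limma called 0 of 8 tested chemokine genes, with 2 at an unadjusted p under 0.05. With the array set block 1 was called higher (3.77% of all genes), and with the replicate block 2 (2.16%).

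In the interferon response list 21 of 23 tested genes were higher at 12 h, and the 4 that were called (against 1.08% of all genes called higher) all rose and are all genes of the immunoproteasome, a form of the proteasome that cuts peptides for antigen presentation. Psmb8, Psmb9 and Psmb10 encode its 3 catalytic subunits and Psme2 a subunit of its activator. Psmb8 was at 9.91, 10.12, 9.21 and 9.23 at 12 h, against 8.44, 8.23, 8.08 and 8.22 at 6 h, a rise of 1.38 ± 0.22 (adjusted p = 0.0238). Psmb10 was at 7.89, 8.46, 7.97 and 7.93 at 12 h, against 6.999, 7.05, 6.85 and 6.999 at 6 h, a rise of 1.09 ± 0.14 (adjusted p = 0.0117). Psmb9 was at 10.14, 10.38, 10.18 and 9.94 at 12 h, against 9.36, 9.01, 9.28 and 9.31 at 6 h, a rise of 0.92 ± 0.13 (adjusted p = 0.0134). Psme2 was at 10.57, 10.52, 10.81 and 10.88 at 12 h, against 9.87, 9.84, 10.15 and 10.23 at 6 h, a rise of 0.67 ± 0.13 (adjusted p = 0.0476). In none of the 4 did the groups overlap, and the 6 h means lay close to the sham means, which were 8.41 for Psmb8, 6.99 for Psmb10, 9.21 for Psmb9 and 10.06 for Psme2. The 29 tested constitutive proteasome subunit genes had a median of 0.05 with 0 calls and 0 at an unadjusted p under 0.05. The 23 tested interferon genes had a median of 0.50, with 14 at an unadjusted p under 0.05, against 18.1% of all genes. The array set block called 6 higher (3.77% of all genes) and the replicate block 7 (2.16%). The other 19 tested genes of the list were not called, such as Irf1, a transcription factor gene (0.57 ± 0.13, adjusted p = 0.0642), and Isg15, a ubiquitin-like protein gene (1.93 ± 0.62, 0.163). Interferon genes that are not on the list were not counted. Igtp and Rnf213, which are not on it, were called higher too, by 0.92 and 0.993. The list had 2 calls without 12 h replicate 1 or any array at 6 h, 3 without 12 h replicate 2 or 3, and 4 without 12 h replicate 4. Psmb9 and Psmb10 were called in all 8 fits, whereas the adjusted p was 0.0878 for Psmb8 without 6 h replicate 3 and 0.129 for Psme2 without 6 h replicate 1. The call of Psme2 was lost in each of the 8. The antigen presentation list had 0 calls among 15 genes (2.65% of all genes) and 2 at an unadjusted p under 0.05 (18.1%). The array set block called 1 lower (4.05% of all genes) and the replicate block 2 (2.38%). RT1-T24-4, an RT1 gene that is not on the list, was called higher, by 0.895.

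The promoters of 7 of the called genes are shown because they differ in the letters they hold for interferon, STAT, NFKB and serum response factors. Each is the RefSeq sequence of assembly GRCr8 on the strand of the gene, 250 bases before the start of transcription and 50 after it. Capitals mark matches on either strand to GAAANNGAA (interferon response, in 9.71% of all 33469 promoters of that length), TTCNNNGAA (STAT, 8.87%), GGANTTTCC (NFKB, 1.28%) and CCATATTAG (serum response factor, 0.0956%). CCATATTAG is a single fixed spelling, so its share is not that of serum response letters in general. The motifs were chosen with the changes of these genes known. The first 4 lines are the immunoproteasome genes Psmb8 (chr20:4656982-4657281, minus strand), Psmb9 (chr20:4668750-4669049, plus strand), Psmb10 (chr19:50743243-50743542, minus strand) and Psme2 (chr15:33052702-33053001, minus strand). Cish (chr8:116850719-116851018, plus strand), Nfkbia (chr6:78597023-78597322, minus strand) and Egr1 (chr18:26736828-26737127, plus strand) follow.
Psmb8: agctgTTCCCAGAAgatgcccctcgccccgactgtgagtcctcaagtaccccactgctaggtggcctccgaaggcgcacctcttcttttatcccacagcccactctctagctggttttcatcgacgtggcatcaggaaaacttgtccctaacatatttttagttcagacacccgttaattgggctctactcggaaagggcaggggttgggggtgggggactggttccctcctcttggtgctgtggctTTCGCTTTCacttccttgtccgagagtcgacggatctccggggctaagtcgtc
Psmb9: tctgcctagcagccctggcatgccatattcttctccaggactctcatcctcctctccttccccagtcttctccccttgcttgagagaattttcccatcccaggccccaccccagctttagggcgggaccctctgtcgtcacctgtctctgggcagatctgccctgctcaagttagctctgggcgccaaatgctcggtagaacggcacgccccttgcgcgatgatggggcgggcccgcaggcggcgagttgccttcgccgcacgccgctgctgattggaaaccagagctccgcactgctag
Psmb10: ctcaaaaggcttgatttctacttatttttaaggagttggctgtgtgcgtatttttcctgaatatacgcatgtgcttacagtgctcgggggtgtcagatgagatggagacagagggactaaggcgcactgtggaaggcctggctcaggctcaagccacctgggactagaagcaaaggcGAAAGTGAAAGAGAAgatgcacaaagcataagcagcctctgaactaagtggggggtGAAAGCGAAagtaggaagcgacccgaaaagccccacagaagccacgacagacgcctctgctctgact
Psme2: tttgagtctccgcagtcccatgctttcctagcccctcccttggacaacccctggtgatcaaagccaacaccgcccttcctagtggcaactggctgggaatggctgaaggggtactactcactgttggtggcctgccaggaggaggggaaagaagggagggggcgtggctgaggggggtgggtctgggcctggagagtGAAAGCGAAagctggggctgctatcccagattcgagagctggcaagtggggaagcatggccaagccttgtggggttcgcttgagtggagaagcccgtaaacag
Cish: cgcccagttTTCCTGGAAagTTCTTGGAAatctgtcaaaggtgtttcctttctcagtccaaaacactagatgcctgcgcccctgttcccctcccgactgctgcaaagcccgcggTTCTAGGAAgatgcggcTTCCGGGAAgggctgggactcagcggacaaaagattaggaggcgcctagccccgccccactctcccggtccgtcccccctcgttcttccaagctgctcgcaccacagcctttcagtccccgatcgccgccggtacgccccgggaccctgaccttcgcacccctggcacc
Nfkbia: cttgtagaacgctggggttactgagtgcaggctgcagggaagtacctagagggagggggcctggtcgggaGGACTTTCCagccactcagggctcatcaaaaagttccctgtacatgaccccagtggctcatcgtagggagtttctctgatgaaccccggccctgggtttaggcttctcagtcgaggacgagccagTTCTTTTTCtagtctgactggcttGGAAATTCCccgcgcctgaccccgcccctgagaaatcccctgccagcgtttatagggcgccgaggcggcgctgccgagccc
Egr1: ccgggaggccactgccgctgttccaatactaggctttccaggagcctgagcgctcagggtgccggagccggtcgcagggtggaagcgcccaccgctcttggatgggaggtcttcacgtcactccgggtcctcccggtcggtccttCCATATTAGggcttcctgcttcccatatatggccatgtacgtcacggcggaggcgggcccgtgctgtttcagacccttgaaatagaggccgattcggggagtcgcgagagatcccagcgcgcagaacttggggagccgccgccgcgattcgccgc
GAAANNGAA occurred at 3 bases before the start in Psmb8, at 53 in Psme2, and at 73, 67 and 17 in Psmb10, where the first 2 matches overlap. It also occurred at 55 bases in Nfkbia. Psmb9 held none of the 4 motifs in this window. Psmb8 also held TTCNNNGAA at 245 bases before the start. Cish held that motif 4 times, at 241, 230, 136 and 119 bases. Nfkbia held the NFKB letters at 180 and 31 bases, and Egr1 held CCATATTAG at 105. Other spellings of the serum response letters were not searched for and are left in lower case. A match is a run of letters and not a measured site.

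Growth arrest genes gave 2 calls, both of the Gadd45 family, whose proteins respond to DNA damage and stress, among 18 tested genes and against 1.08% of all genes called higher. Gadd45a was at 9.65, 9.46, 9.13 and 9.12 at 12 h, against 7.94, 7.95, 7.86 and 7.67 at 6 h, with a sham mean of 7.02, and rose by 1.49 ± 0.14 (adjusted p = 0.0058). Gadd45b was at 6.01, 6.92, 6.20 and 6.23 at 12 h, against 4.69, 4.95, 4.64 and 5.49 at 6 h, and rose by 1.40 ± 0.25 (adjusted p = 0.0334; 0.0504 with the array set block). Gadd45g followed at 0.65 ± 0.14 without a call (0.0541), as did Cdkn1a, the gene of the cell cycle inhibitor p21 (1.74 ± 0.40, 0.0695). Gadd45a was called in all 8 fits without 1 array, and Gadd45b had 0.106 without 6 h replicate 3. The list of 18 had a median of 0.21, and its number of calls was 1 without 12 h replicate 1, 2 or 4 or 6 h replicate 1, 2 or 3, and 3 without 12 h replicate 3.

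Of 19 tested pro-apoptotic genes 0 were called by limma and 2 had an unadjusted p under 0.05. Their median change was 0.13. Over all genes those shares were 2.65% and 18.1%, so neither count stands apart from the background. Of 10 survival genes 0 were called, their median was 0.21 and 2 had an unadjusted p under 0.05. With the replicate block 1 pro-apoptotic gene was called higher, and 1 survival gene higher and 1 lower (2.16% of all genes higher and 2.38% lower). With the array set block 2 survival genes were called lower (4.05% of all genes). Aifm1, a mitochondrial protein gene that takes part in cell death when released, had the smallest p of the first list, at 11.14 ± 0.19 at 12 h and 10.73 ± 0.16 at 6 h (SD, n = 4 each; adjusted p = 0.162). Bcl2l11, which encodes the death-promoting protein Bim, was at 6.80, 6.997, 7.54 and 6.96 at 12 h, against 7.35, 6.86, 6.85 and 6.72 at 6 h, with a sham mean of 5.68. Its change was 0.13 (95% confidence interval -0.32 to 0.58, adjusted p = 0.821), with -0.21 within replicates 1 and 2 and 0.47 within replicates 3 and 4. Bcl2l1, the Bcl-xL gene, did not reach the minimum level and was not tested. The survival gene with the smallest p was Bag3, a cochaperone gene, at -0.86 ± 0.19 (adjusted p = 0.0635; 0.0171 with the array set block).

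**Figure D3:**
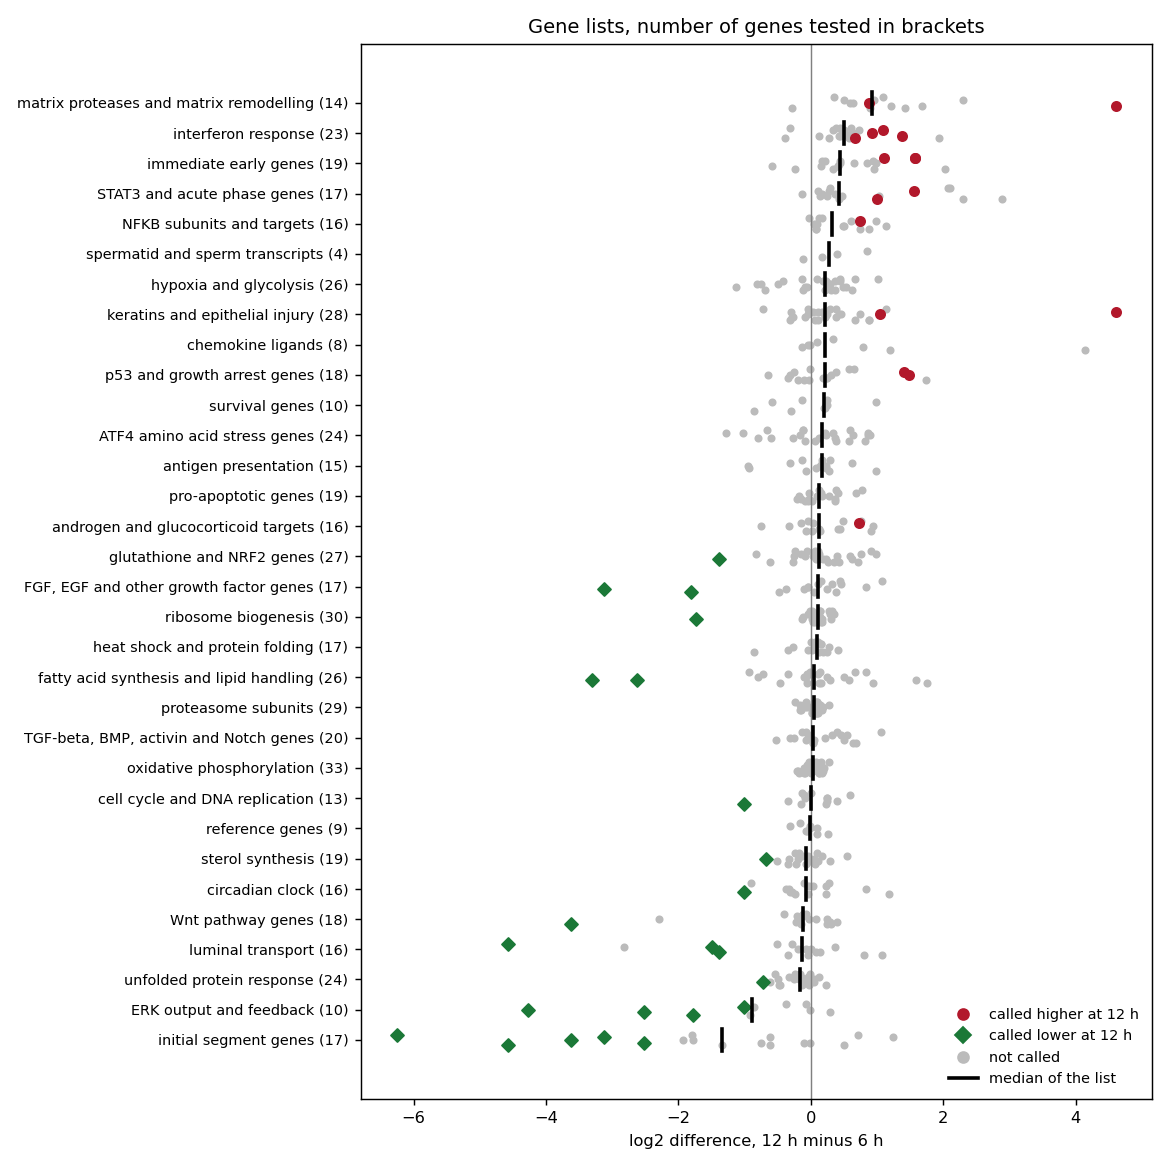
Log2 difference of 12 h minus 6 h for each tested gene of 32 lists, ordered by the median of the list (black bar), with the number of genes tested in brackets. Red circles are genes called higher at 12 h, green diamonds genes called lower, and grey points genes not called. Medians are over all tested genes, with Mmp7, Myc, Cish and Mogat1 drawn as called although tested only through 1 time. The lists with the lowest medians are initial segment genes (-1.34) and ERK output (-0.88), and the highest are matrix genes (0.93) and the interferon response (0.50).

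Genes that mark the initial segment had the lowest median of the 32 gene lists. Of 17 tested, 5 fell (Pdgfrl, Nkd2, Etv4, Slc52a3 and Cmahp), against 1.57% of all genes called lower, 0 rose and 12 were not called, with a median of -1.34. That median was -2.44 within replicates 1 and 2 and -0.135 within replicates 3 and 4. The array set block, which reads replicates 1 and 2, called 12 lower and 3 higher (4.05% and 3.77% of all genes). Penk, the proenkephalin gene, was at 10.69, 10.19, 13.88 and 13.98 at 12 h, against 13.96, 14.20, 14.04 and 13.74 at 6 h. Its change was thus -3.64 within replicates 1 and 2 and 0.05 within replicates 3 and 4, and this difference was itself called (interaction adjusted p = 0.0285). Cst8, an epididymal cystatin gene, was at 11.005, 10.29, 13.20 and 13.08 at 12 h, against 13.04, 13.14, 13.88 and 12.87 at 6 h, a difference of -1.34 ± 0.67 that was not called (adjusted p = 0.366; 0.0173 with the array set block). Ggt1, a gamma-glutamyl transferase gene, was at 11.43, 11.50, 12.03 and 12.06 at 12 h, against 12.39, 12.50, 12.34 and 12.30 at 6 h, a difference of -0.62 ± 0.17 (adjusted p = 0.103; 0.0071 with the array set block). For Cst8 and Penk the lowest arrays were 12 h replicates 1 and 2, while 12 h replicates 3 and 4 overlapped with the 6 h arrays. At 18 h Penk lay at 13.46 to 13.93 and Cst8 at 12.40 to 13.03, above those 2 arrays, and Ggt1 at 11.34 to 11.83. These 18 h levels were not tested here. Without 1 array the list had 2, 3 or 6 calls: 2 without 12 h replicate 2 or any array at 6 h, 3 without 12 h replicate 1 or 4, and 6 without 12 h replicate 3.

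Over all probe sets, 10 of 12984 (0.077%) had a change that differed between the pairs of replicates, 8 of them higher within replicates 3 and 4. Besides Penk these included Fabp7, a brain-type fatty acid binding protein gene (2.27, 2.26, 9.49 and 9.34 at 12 h, against 10.65, 10.59, 10.84 and 9.17 at 6 h, with changes of -8.35 and -0.59 in the pairs, interaction adjusted p = 0.0373). Ggh, a folate-processing hydrolase gene, was at 7.01, 7.35, 12.66 and 11.87 at 12 h, against 12.33, 12.64, 12.77 and 12.41 at 6 h, and Pla2r1, a phospholipase A2 receptor gene, was at 4.15, 3.99, 7.55 and 7.003 at 12 h, against 8.65, 8.71, 8.60 and 8.10 at 6 h. For all 4 genes 12 h replicates 1 and 2 were the lowest of the 8 arrays. The arrays of 12 h replicates 3 and 4 lay within the range of the 6 h arrays for Penk and Fabp7, with 1 array in and 1 below it for Ggh, and below every 6 h array for Pla2r1, whose change was -4.61 within replicates 1 and 2 and -1.07 within replicates 3 and 4. The 18 h and sham means were 13.71 and 13.79 for Penk, 7.78 and 9.97 for Fabp7, 12.01 and 12.03 for Ggh and 6.41 and 7.85 for Pla2r1. For each gene both means lay above the levels of 12 h replicates 1 and 2. Whether those 2 arrays or replicates 3 and 4 stand apart was not tested, and within replicates 3 and 4 array set and time cannot be told apart.

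**Figure D4:**
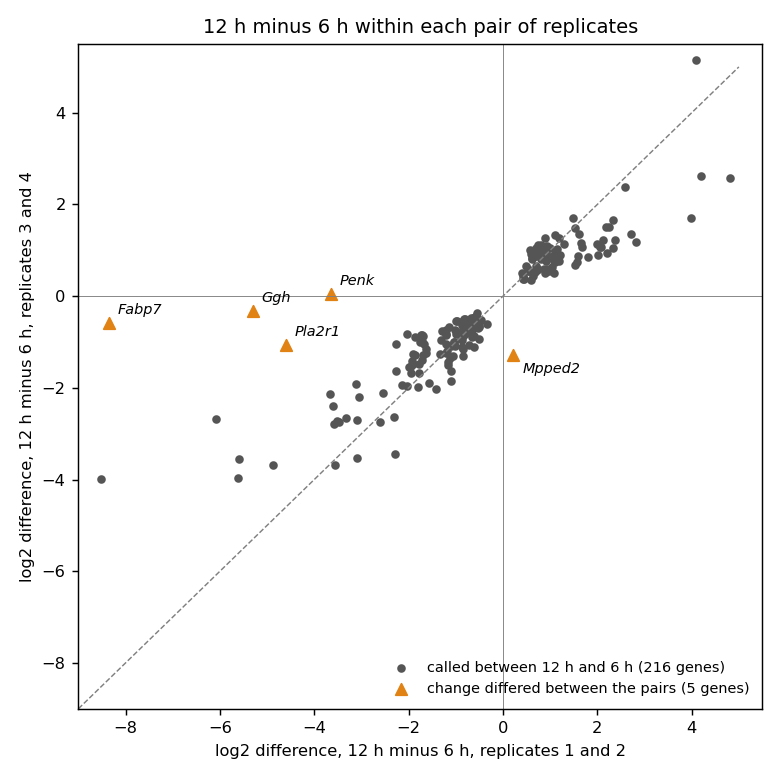
Log2 difference of 12 h minus 6 h within replicates 1 and 2 (x axis) against the same within replicates 3 and 4 (y axis), for the 216 called genes (grey points) and 5 genes whose change differed between the pairs (orange triangles). The dashed line marks equal changes. Grey points lie in the quadrants of equal sign, which follows from groups that do not overlap. Penk, Ggh and Fabp7 lie near 0 on the y axis and far to the left.

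In the fit without a block, transport and metabolic genes of the epithelium gave few calls in each list, where 2.65% of all genes were called. Aqp9, the main water and glycerol channel gene of principal cells, was at 10.77, 11.08, 11.59 and 11.58 at 12 h, against 12.38, 12.72, 12.74 and 12.71 at 6 h, and fell by 1.39 ± 0.20 (adjusted p = 0.0166). Slc1a1, a glutamate transporter gene, was at 10.09, 11.29, 11.17 and 11.01 at 12 h, against 12.13, 12.67, 12.33 and 12.44 at 6 h, and fell by 1.496 ± 0.27 (adjusted p = 0.0326; 0.0515 with the array set block). Their 6 h means were 12.64 and 12.39, beside sham means of 12.67 and 12.72, and with Slc52a3 they made 3 falls among 16 tested transport genes (against 1.57% of all genes), whose median was -0.14. Acsl1, which activates long fatty acids, was at 8.03, 7.92, 9.27 and 9.002 at 12 h, against 10.86, 11.20, 11.75 and 10.93 at 6 h, and fell by 2.63 ± 0.35 (adjusted p = 0.0122). It was the only call among 25 lipid genes without Mogat1, whose median was 0.11. Ggt5, the transferase gene that cleaves leukotriene C4, fell by 1.38 ± 0.27 (10.59 ± 0.61 at 12 h and 11.97 ± 0.01 at 6 h, SD, n = 4 each; adjusted p = 0.0459), the only call among 27 glutathione and NRF2 genes. Lss, a sterol synthesis gene, fell by 0.68 ± 0.11 (adjusted p = 0.0222), and Fgf1, a growth factor gene, by 1.82 ± 0.30 (adjusted p = 0.0266). With Pdgfrl, Fgf1 made 2 falls among 17 growth factor genes (median 0.11), while Lss was the only call among 19 sterol genes (median -0.07). Acsl1 kept its call in all 8 fits without 1 array, while without 6 h replicate 3 the adjusted p was 0.0649 for Aqp9, 0.0994 for Slc1a1, 0.132 for Ggt5 and 0.075 for Lss, and without 6 h replicate 2 it was 0.089 for Fgf1. The transport list had 0 calls without 6 h replicate 2 or 3, 1 without 6 h replicate 1 or 4, and 2 without 12 h replicate 1, 2 or 4. The 25 lipid genes had 4 calls without 12 h replicate 3 and 2 without 6 h replicate 4. With the array set block 8 of the 25 lipid genes were called, 4 glutathione, 4 transport, 3 growth factor genes and 1 sterol gene (7.82% of all genes). The replicate block called 1 lipid, 1 glutathione, 3 transport, 3 growth factor and 2 sterol genes (4.54%).

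Several lists had a single call or none, where 1.08% of all genes were called higher and 1.57% lower. Rrp12, a ribosome assembly gene, fell by 1.73 ± 0.20 (7.89 ± 0.33 at 12 h and 9.62 ± 0.26 at 6 h, SD, n = 4 each; adjusted p = 0.0092) while 25 of the 30 ribosome biogenesis genes were higher, with a median of 0.11. Ndrg2, a differentiation gene that androgens and glucocorticoids raise, was higher by 0.73 ± 0.10 (adjusted p = 0.0118) among 16 hormone targets with a median of 0.13. Rrp12 and Ndrg2 were called in all 8 fits without 1 array. Herpud1, a gene of protein disposal at the endoplasmic reticulum, fell by 0.73 ± 0.15 (adjusted p = 0.0493; 0.164 with the array set block), and 20 of the 24 unfolded protein response genes were lower with a median of -0.16. The chaperone gene Hspa5 changed by -0.03 ± 0.10. Hlf, a clock output transcription factor gene, fell by 1.00 ± 0.20 (adjusted p = 0.0434; 0.123 with the array set block), with 1 call among 16 clock genes and a median of -0.07. The hour of day at dissection is not in the labels used here, so hours of ligation and hour of day cannot be told apart. Without 6 h replicate 3 the adjusted p was 0.132 for Herpud1 and 0.133 for Hlf. The call of Herpud1 was lost in each of the 8 fits. The ATF4 and Wnt lists had 3 calls each without 12 h replicate 3. On all 8 arrays limma called 0 of 24 ATF4 genes (7 at an unadjusted p under 0.05), 0 of 26 hypoxia and glycolysis genes (13), 0 of 33 oxidative phosphorylation genes (1), 0 of 17 heat shock genes (4), 0 of 20 TGF-beta and Notch genes (5), 0 of 4 sperm transcripts (1) and 0 of 9 reference genes (1), against 18.1% of all genes at that p. With the array set block limma called 2 ATF4 genes higher and 2 lower, 1 hypoxia gene higher and 2 lower, 1 heat shock gene lower and 2 TGF-beta and Notch genes higher. Over all genes that block called 3.77% higher and 4.05% lower. The Wnt list had 1 call among 18, Nkd2, and the cell cycle list 1 among 13, Ccnd1.

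Among injury and matrix genes Elf3 and Adamts9 rose. Elf3, an epithelial transcription factor gene induced by inflammation, was at 8.77, 8.68, 8.79 and 9.02 at 12 h, against 7.54, 7.68, 7.82 and 8.05 at 6 h, with a sham mean of 6.23, and rose by 1.04 ± 0.13 (adjusted p = 0.0117). It was the only call among 27 keratin and injury genes without Mmp7, whose median was 0.21. Adamts9, a matrix protease gene, was at 7.35, 7.04, 6.89 and 6.76 at 12 h, against 6.23, 6.34, 6.00 and 5.95 at 6 h, and rose by 0.88 ± 0.15 (adjusted p = 0.0306). Without Mmp7, 1 of 13 tested matrix genes rose (against 1.08% of all genes), 0 fell and 12 were higher, with a median of 0.89. The replicate block called 6 (2.16% of all genes called higher) and the array set block 5 (3.77%). Timp1, an inhibitor of matrix proteases, stood at 2.29 ± 0.71 (adjusted p = 0.149; 0.0067 with the array set block). Elf3 was called in all 8 fits without 1 array, while Adamts9 had an adjusted p of 0.103 without 6 h replicate 3. The 13 matrix genes had 0 calls without 12 h replicate 1 or 2 or any array at 6 h.

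The 14 tested fibroblast markers were all higher at 12 h, with a median of 0.62. Limma called 0 of them, with 0 at an unadjusted p under 0.05, but the replicate block called 5 higher (2.16% of all genes) and the array set block 2 (3.77%). Col6a1, a collagen VI chain gene, had an adjusted p of 0.0281 with the replicate block and 0.0442 with the array set block. The mean level of the 14 markers was 8.68 to 10.31 over the 4 arrays at 12 h, against 7.95 to 9.97 at 6 h. In replicates 3 and 4 they were lower than in replicates 1 and 2 by a median of 1.44, 14 of 14 called, and 10 of the 14 matrix genes were called lower there too. Macrophage markers (11 tested) had a median of 0.36 with 0 calls and 0 at an unadjusted p under 0.05, at 0.97 within replicates 1 and 2 and -0.0857 within replicates 3 and 4, and a mean level of 6.05 to 8.34 at 12 h, against 6.75 to 7.34 at 6 h. Smooth muscle markers (10 tested) had a median of 0.37 with 0 calls and 2 at an unadjusted p under 0.05. Of 5 endothelial markers 4 were higher with 0 calls (0 at an unadjusted p under 0.05). B cell, neutrophil, mast cell and sperm markers had no tested member. Markers of the epithelium had small medians: 7 basal cell markers had a median of -0.26, 3 clear and narrow cell markers 0.0479 and 9 principal cell markers -0.18, with Aqp9 the only call. The array set block called 4 principal cell markers and 1 basal cell marker lower (4.05% of all genes), and the replicate block 1 of each (2.38%). Within replicates 1 and 2 the medians were -0.34 and -0.47, and within replicates 3 and 4 they were -0.0147 and 0.108. The principal cell markers lay at a mean of 11.81 to 12.41 at 12 h, against 12.44 to 12.57 at 6 h. The part of these markers in the rises of matrix, chemokine and interferon genes was not tested.

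Leaving out any of 7 of the 8 arrays lowered the count of called probe sets. Omitting replicate 1, 2, 3 or 4 of the 12 h group gave 149, 175, 417 or 235 calls. Omitting the same of the 6 h group gave 107, 112, 102 or 210. Of 55 named genes that were called, 18 kept the call in all 8 of these fits: B3galt5 and Cish, tested only through their 12 h arrays, and Acsl1, Apeg3, Cd6, Elf3, Etv1, Gadd45a, Gamt, Gk, Hey2, Ndrg2, Nkd2, Pdgfrl, Psmb9, Psmb10, Rasl10a and Rrp12. All 55 kept their direction in each, as they must, because their 12 h and 6 h arrays did not overlap. Replicates 1 and 2 alone gave 808 called probe sets, and replicates 3 and 4 alone gave 0 with limma, although 2077 had an unadjusted p under 0.05 there.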

How the data were processed

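Gene expression was measured on Affymetrix rat arrays, 1 per sample. The deposited values are log2 expression levels made by the authors with GCRMA, as the submitters' processing notes name it, in a version not given in the sources used here. Of 31042 probe sets without controls, 20826 had 1 gene symbol, 436 several and 9780 none in GEO's platform annotation, and 20758 were found by Entrez ID in RefSeq. With limma 3.58.1 in R 4.3.3, 12984 probe sets at or above 5 in at least 4 of the 8 arrays were fitted, without a block, with Benjamini-Hochberg adjustment. Where a gene had several probe sets, the one of highest mean over the 8 arrays stood for it. Of the called named genes, Gk, Cebpd, Fgf1, Hlf and Apeg3 each had 1 further tested probe set, of the same direction but not called. Acsl1, Cmahp, Col18a1, Etv4, Ggt5, Lss and Slc1a1 each had 1 further that was called the same way, and Ccnd1 and Rrp12 had 2.

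The arrays, the lists and the tests were chosen with earlier results of these data known. Genes were named by rule: the 14 largest non-overlapping rises and falls among called genes, up to 5 called members of each list (or, with none called, the member with the smallest p), and a fixed set of pathway genes. Other genes named, such as Spry1, Fos, Timp1, Penk, Fabp7 and Tmem150c, were picked with their values already seen. Altogether 32 gene lists and 16 marker lists held 971 symbols, 873 of them on the array.

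Groups and replicate numbers came from the sample titles. Residuals of arrays with the same number correlated at 0.455, 0.363, 0.546 and 0.351 for replicates 1 to 4, and 5 of the 8 arrays correlated best with their own number. These values do not separate pairing by number from the divide between lower and higher replicate numbers described above. Whether the numbers pair the samples was thus not tested. No pair of arrays was identical (correlations 0.881 to 0.986). The fit was tested on simulated data. The number of arrays limits the precision. Alternatives covered the prior, the minimum level, the normalization, the arrays in the fit, blocks, array weights, probe set averaging, thresholds and leaving out each array; those for gene list counts, and list counts without genes at or above 5 at 1 time only, were added after seeing the data.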

Additional observations from a re-analysis of the deposited data

Results flagged for a closer look

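Among 168 groups of 4 arrays examined, 8 held 1 array far from the other 3. That share is close to the about 1 in 20 that chance gives. At 12 h, Ccnd1 was at 8.32 in replicate 3 (others 8.82 to 8.91), Etv5 at 5.66 in replicate 3 (others 3.00 to 3.43), Nags at 5.18 in replicate 3 (others 7.31 to 7.47) and Psmb10 at 8.46 in replicate 2 (others 7.89 to 7.97). Th, the tyrosine hydroxylase gene of sympathetic nerves, was at 5.03 in 12 h replicate 3 (others 2.43 to 2.72) and was not called. At 6 h, Aqp9 was at 12.38 in replicate 1 (others 12.71 to 12.74), Cyp4f4 at 8.69 in replicate 4 (others 6.79 to 7.06) and Egr1 at 7.99 in replicate 3 (others 7.18 to 7.31).

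The change between the times differed between replicates 3 and 4 and replicates 1 and 2 in 10 probe sets, by limma's interaction term. The bacterial control transcript dap, which is no gene of the tissue, reached 7.98 in 6 h replicate 4, against 2.22 in the arrays at the floor.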

How the results depend on the processing

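The 326 called probe sets became 61 without a minimum level (16 higher, 45 lower), where 50 of the 55 named calls were lost, 573 with all 16 arrays in the fit, 808 in replicates 1 and 2 alone and 0 by limma in replicates 3 and 4 alone (2077 at an unadjusted p under 0.05). Blocks and weights gave more: 572 with the replicate block, 1047 with the replicate pair as a block, 982 with the array set as a block, 893 with the pair as a random block and 858 with array weights. At least 2-fold change left 173 and an adjusted p under 0.01 left 43. Leaving out 1 array gave 102 (without 6 h replicate 3) to 417 (without 12 h replicate 3). The trended robust prior (325), a minimum of 7 (375), the 12 ligated arrays (460), centring (317), quantile normalization (341), cyclic loess (337) and averaging by gene (254) stayed within 1.5 times.

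The replicate block ended 4 of the 55 named calls (Cyp4f4, Rhcg, Nr4a1 and Sgsm1), made 9 of 29 uncalled named genes pass and changed no other named call. The array set block ended 6 (Mmp7, Gadd45b, Herpud1, Hlf, Shc4 and Slc1a1). No named call changed direction in any alternative run, which for fits on fewer arrays follows from groups that do not overlap. Among uncalled genes the direction turned in some fits. Without 1 array, Atp6v1g3 ranged from -0.11 (without 6 h replicate 1) to 0.59, Bcl2l11 from -0.0247 (without 12 h replicate 3) to 0.26 and Hbb from -0.0953 (without 12 h replicate 2) to 0.50. Bcl2l11 was at -0.21 with the array set block and in replicates 1 and 2 alone, and at -0.0065 with array weights. In replicates 3 and 4 alone Hbb and Lpl were at -0.29. The 10 probe sets whose change differed between the pairs became 102 without a minimum level, 31 with a minimum of 7 and 1 at an adjusted p under 0.01. Leaving out genes at or above 5 at 1 time only, chosen after seeing the data, took 1 call each from the early (3 to 2), STAT (2 to 1), lipid (2 to 1), injury (2 to 1) and matrix (2 to 1) lists and changed no other list. The cause of these shifts was not tested.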
